A study of Mus musculus with 6 samples.

Results

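The genes described here are 41 genes that hepatocytes, the main cell type of the liver, use to make plasma proteins and a few liver enzymes. They were taken from a named list, and all 41 of the 41 listed symbols were found among the 55536 genes of the count table. The list was drawn up with the counts of these genes in these libraries already known, so their levels in knockout and control libraries are given as a description, and no test is drawn from them. The samples were islets, the hormone-producing cell clusters of the pancreas, isolated whole from C57B1/6J mice. The 3 control libraries came from Klf4+/+;Gcg-iCre mice, with intact Klf4 alleles, and the 3 knockout libraries from Klf4fl/fl;Gcg-iCre mice, with both alleles floxed. Both groups carried the Gcg-iCre driver, in which the glucagon gene drives Cre recombinase, so the deletion is meant for alpha cells and the other islet cells keep their Klf4 alleles. The labels give neither age nor sex, and they do not say whether a library was made from 1 mouse or from several. If the libraries of a group do not come from separate animals, the spread between them may be technical.

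Messenger RNA was sequenced and counted per gene. Totals ran from 101277200 to 110243918 counts per library. Klf4 itself had 3174, 2999 and 1899 counts in control replicates 1 to 3 and 2478, 2463 and 2282 in knockout replicates 1 to 3, so the groups overlapped. The listed beta cell markers, insulin genes among them, summed to between 183509 and 203696 CPM (counts scaled to a common library total) in the 6 libraries, and the alpha cell markers to 48861, 61391 and 43539 CPM in controls and 33980, 40159 and 34857 CPM in knockouts, with 4 of 9 called lower by DESeq2 (0.657% of all genes). The 6 mesenchymal markers summed to 459 to 614 CPM in controls and 883 to 965 CPM in knockouts, with 5 called higher (1.53% of all genes). Xist, the transcript of the inactive X chromosome, had at least 73469 counts in each control and at most 32 in each knockout library, while the 4 listed Y-linked genes were at 0 in every control and at 3050 or more in every knockout library; differences by sex and by genotype cannot be told apart here. Between 84.3% and 87.3% of genes with 1 to 20 counts in a library had an even count. Most RNA fragments may thus have entered the table as 2 counts, though read pairing is not given. On that assumption, intervals below were computed on halved counts, and they cover counting error only.

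Hepatocytes secrete most proteins of blood plasma: albumin, which carries fatty acids and hormones, the apolipoproteins of lipid particles, the clotting factors, and inhibitors that hold proteases in check. Blood levels of acute phase proteins such as serum amyloid A rise in inflammation, when cytokines reach the liver. Hepatocytes also differ along the liver lobule, with urea synthesis and glucose production favoured near the portal vein and drug oxidation and glutamine synthesis near the central vein. Islets are not a usual source of most of these proteins, although a few of the genes, such as Ambp, are known to be active in the pancreas as well.

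The promoters of 6 members are shown because these members mark the main groups below: Alb, Fgb and Pzp were high in knockout replicate 1 and clearly present in knockout replicate 2, Saa1 and Saa2 were high in the first library and at 0 in the other, and Cyp2c29 had nearly the same count in both. Each line holds the 250 bases before the RefSeq start site in GRCm38.p6, written 5′ to 3′ on the strand of the gene. Capitals mark matches, on either strand, to GTTAAT followed directly by NNTNNAC (called here the GTTAAT long form, a pattern of letters known from liver promoters), to TTGCNNAA (a form of the C/EBP site) or to TATAAA (the TATA box). The windows lie at chr5:90460620-90460869 (plus strand) for Alb, chr3:83049864-83050113 (minus) for Fgb, chr6:128526721-128526970 (minus) for Pzp, chr7:46742981-46743230 (minus) for Saa1, chr7:46751583-46751832 (plus) for Saa2 and chr19:39286835-39287084 (plus) for Cyp2c29.
Alb: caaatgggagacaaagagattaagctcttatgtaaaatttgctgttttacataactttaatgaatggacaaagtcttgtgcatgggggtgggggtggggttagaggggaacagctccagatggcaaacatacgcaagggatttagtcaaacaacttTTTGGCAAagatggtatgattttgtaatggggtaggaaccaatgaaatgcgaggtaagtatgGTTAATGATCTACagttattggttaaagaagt
Fgb: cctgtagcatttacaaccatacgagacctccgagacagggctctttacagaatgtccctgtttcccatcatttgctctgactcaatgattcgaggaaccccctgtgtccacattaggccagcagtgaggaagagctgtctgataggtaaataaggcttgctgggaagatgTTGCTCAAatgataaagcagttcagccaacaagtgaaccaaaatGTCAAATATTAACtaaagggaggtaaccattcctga
Pzp: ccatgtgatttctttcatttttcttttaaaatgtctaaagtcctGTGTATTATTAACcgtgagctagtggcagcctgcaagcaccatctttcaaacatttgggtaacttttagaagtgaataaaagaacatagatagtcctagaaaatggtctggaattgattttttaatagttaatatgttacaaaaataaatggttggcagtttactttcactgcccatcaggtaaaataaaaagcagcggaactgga
Saa1: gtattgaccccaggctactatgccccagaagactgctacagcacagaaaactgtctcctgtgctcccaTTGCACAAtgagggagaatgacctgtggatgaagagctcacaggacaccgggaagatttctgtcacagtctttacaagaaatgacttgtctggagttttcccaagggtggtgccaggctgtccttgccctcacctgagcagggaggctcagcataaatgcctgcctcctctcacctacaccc
Saa2: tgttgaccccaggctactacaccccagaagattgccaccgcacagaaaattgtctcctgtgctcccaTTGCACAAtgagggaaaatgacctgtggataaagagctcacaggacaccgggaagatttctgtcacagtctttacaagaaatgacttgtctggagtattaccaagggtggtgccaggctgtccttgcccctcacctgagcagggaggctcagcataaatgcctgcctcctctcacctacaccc
Cyp2c29: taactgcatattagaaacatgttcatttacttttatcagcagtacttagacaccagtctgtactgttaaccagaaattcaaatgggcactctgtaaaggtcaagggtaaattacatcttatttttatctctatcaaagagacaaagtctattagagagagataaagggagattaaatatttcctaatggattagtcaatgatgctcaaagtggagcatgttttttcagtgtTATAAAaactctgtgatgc
The GTTAAT long form began 32 bases before the start site in Alb, 36 in Fgb and 206 in Pzp. The windows of Saa1 and Saa2 were 94.8% identical (238 identical positions, 11 mismatches and 2 gap positions), and both held TTGCACAA. Of the 41 members, 31 had a promoter in the RefSeq table. The GTTAAT long form was found in 3 of these 31 (9.68%) and in 0.218% of all 27025 genes with a window, the C/EBP form in 11 (35.5%) and 10.8%, and the TATA box in 7 (22.6%) and 14.3%. GTTAAT alone, which the long form contains, was found in 7 of 31 (22.6%) and in 7.49% of all genes, and CAAAGTCCA, a form of the HNF4 site, in 1 of 31 and in 0.451%. Related genes were counted separately: Saa1 and Saa2 are both among the 11, and Serpina1a and Serpina1c are both among the 7. These are 5 of 17 letter patterns searched, all chosen after the counts were seen, and a match is a description of the letters only.

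The summed level of the 41 members was 94.5, 85.1 and 71.6 CPM in control replicates 1 to 3 and 1627, 148 and 69.8 CPM in knockout replicates 1 to 3. Knockout replicate 1 thus stood far above the 5 other libraries, knockout replicate 2 lay above the controls by less, and knockout replicate 3 lay just below the lowest control. The members made up 0.163% of all counts in knockout replicate 1. In 39 of 41 members the highest normalised count of the 6 libraries was that of knockout replicate 1, the exceptions being Itih1 and Cyp2c29. The share of all genes highest in that library was not counted. Such counts, here and for the lists below, therefore have no baseline. In whole islets, fewer cells of a type and less RNA per cell cannot be told apart, nor can more cells and more RNA.

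Against the control mean, raised to 3 counts where it was lower, the median member was 181-fold higher in knockout replicate 1, 6.16-fold higher in knockout replicate 2 and at 0.753 times the control in knockout replicate 3; the medians over all 25210 genes fitted were 0.988, 0.984 and 0.986. At least 4 times the control mean were 37 members in knockout replicate 1 (1.78% of all genes), 21 in knockout replicate 2 (0.837%) and 1 in knockout replicate 3 (0.706%). The rule for choosing the members used these libraries, so nothing is read from these counts beyond what each library held.

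**Figure D1:**
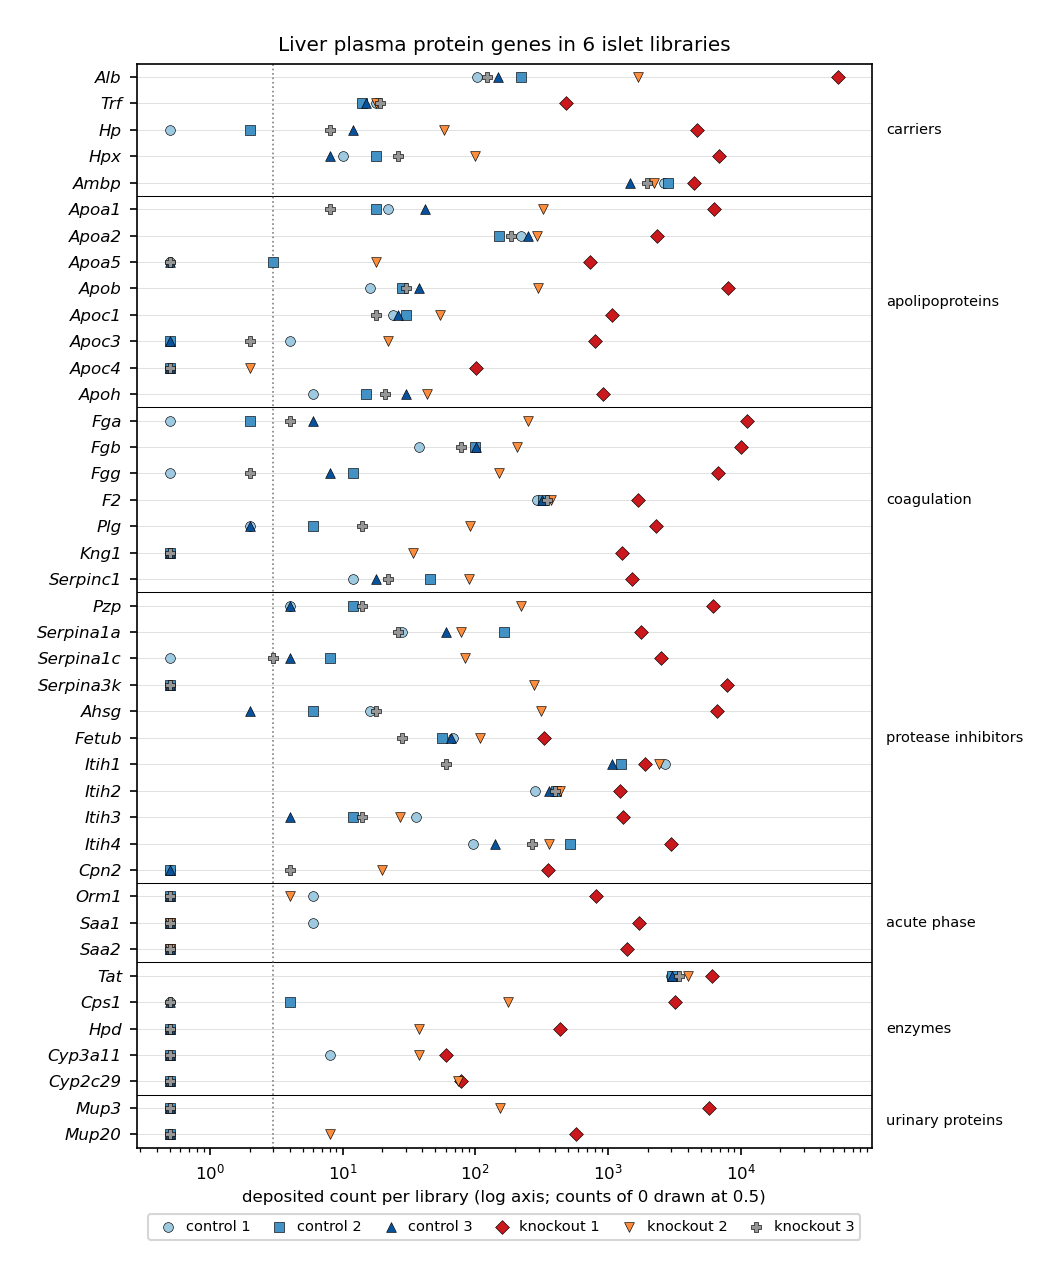
Deposited counts of the 41 members in each library, grouped by role, on a log axis with counts of 0 drawn at 0.5 and the floor of 3 counts dotted; markers that coincide hide each other. Knockout replicate 1 (red) lies at the right in nearly every row, up to 54349 counts for Alb, and knockout replicate 2 (orange) lies between it and the other 4 libraries in most rows.

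Among the carrier proteins, Alb, the albumin gene (chromosome 5, 90460897 to 90476602, GRCm38), had 104, 222 and 148 counts in control replicates 1 to 3 and 54349, 1690 and 122 in knockout replicates 1 to 3. Knockout replicates 1 and 2 lay above all controls, by 241-fold and 8.18-fold over the highest of them, and knockout replicate 3 lay among them. Hp, haptoglobin, which binds free haemoglobin, had 0, 2 and 12 counts in controls and 4698, 58 and 8 in knockouts. Hpx, hemopexin, which binds haem, had 10, 18 and 8 counts in controls and 6854, 100 and 26 in knockouts. For both, knockout replicate 1 exceeded knockout replicate 2 by more than Alb did: the ratio of normalised counts was 74.2 for Hp (95% counting interval 51.5 to 111) and 62.8 for Hpx (47.5 to 84.7), against 29.5 for Alb (27.5 to 31.6). Trf, transferrin, the iron carrier of plasma, had 14 to 18 counts in controls and 485, 18 and 19 in knockouts; 79.8% of the 50-base windows of its transcript also occur in Gm20425, which overlaps it on the same strand, so its count is uncertain. Ambp, the precursor of alpha-1-microglobulin and bikunin, behaved differently, with 2628, 2826 and 1467 counts in controls and 4481, 2224 and 1958 in knockouts. Its range in the controls held knockout replicates 2 and 3, and knockout replicate 1 was 1.56-fold above the highest control.

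The 8 apolipoprotein genes summed to 2.24 to 3.81 CPM in controls and to 184, 10.2 and 2.58 CPM in knockout replicates 1 to 3. Apoa1, the main protein of high-density lipoprotein, had 22, 18 and 42 counts in controls and 6318, 322 and 8 in knockouts. Apob, the structural protein of low-density lipoprotein, had 16, 28 and 38 counts in controls and 8054, 298 and 30 in knockouts. In both genes knockout replicate 3 overlapped the controls or fell below them, and the ratio of knockout replicate 1 to knockout replicate 2 was 18.0 for Apoa1 (15.3 to 21.2) and 24.8 for Apob (21.0 to 29.3). Apoa2 was present in every library, at 223, 151 and 250 counts in controls and 2337, 290 and 186 in knockouts. Apoc1, a small exchangeable apolipoprotein, had 24 to 30 counts in controls and 1072, 54 and 18 in knockouts, and Apoh, beta-2-glycoprotein I, had 6 to 30 and 917, 43 and 21. Apoa5 and Apoc3, regulators of plasma triglyceride that neighbour Apoa1 on chromosome 9 (46228580 to 46271919 for the 3 genes), had at most 4 counts in any control and 738 and 794 counts in knockout replicate 1, with 18 and 22 in knockout replicate 2. Apoc4 was at 0 in the controls and had 102, 2 and 0 counts in the knockouts.

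Of the coagulation genes, the 3 that encode the chains of fibrinogen, the protein that forms the clot, lie side by side on chromosome 3 (83007724 to 83049863). Fga had 0, 2 and 6 counts in controls and 11127, 248 and 4 in knockouts. Fgb had 38, 100 and 102 counts in controls and 10093, 208 and 78 in knockouts. Fgg had 0, 12 and 8 counts in controls and 6814, 150 and 2 in knockouts. The ratio of knockout replicate 1 to knockout replicate 2 was nearly the same for the 3 chains, at 41.1, 44.4 and 41.6, and their intervals overlapped (34.4 to 49.5, 36.6 to 54.5 and 33.1 to 53.0). All 3 intervals lay above that of Alb.

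Plg, plasminogen, the precursor of the enzyme that dissolves clots, had 2, 6 and 2 counts in controls and 2294, 92 and 14 in knockouts. Kng1, kininogen, was at 0 in every control, at 1287 and 34 counts in knockout replicates 1 and 2 and at 0 in knockout replicate 3. Serpinc1, antithrombin, had 12, 46 and 18 counts in controls and 1516, 90 and 22 in knockouts. F2, prothrombin, was present in all libraries, at 293, 324 and 318 counts in controls and 1690, 370 and 350 in knockouts. The controls lay close together for F2, and the smaller ratio of knockout replicate 1 to knockout replicate 2 (4.18, 3.56 to 4.93) went with that shared level.

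**Figure D2:**
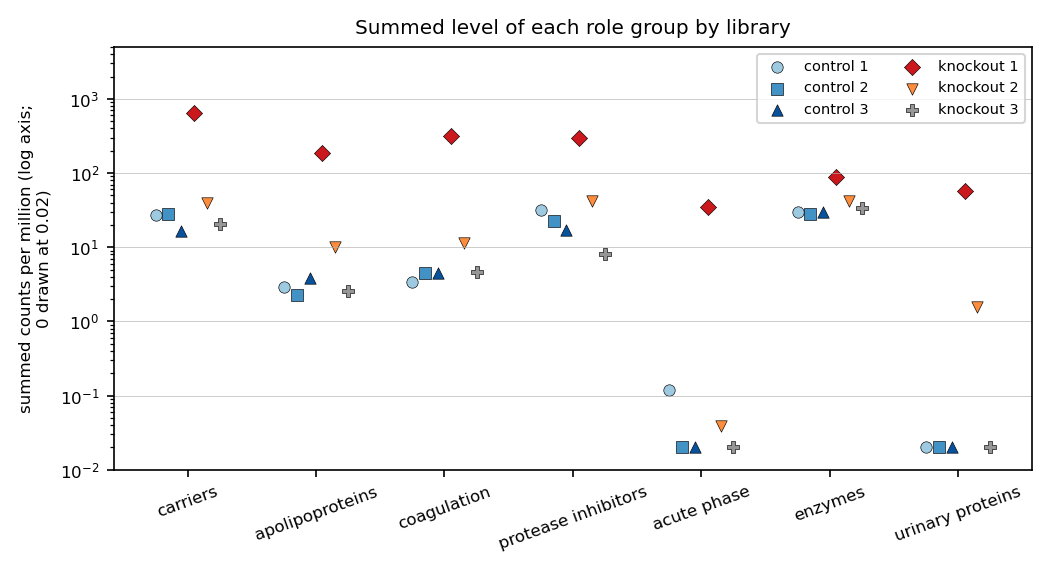
Summed CPM of each role group in each library, on a log axis with sums of 0 drawn at 0.02. Knockout replicate 1 is highest in all 7 groups; for the acute phase genes it holds 35.4 CPM against 0.0388 in knockout replicate 2, while for the enzymes, which include Tat, it holds 89.6 against 42.2.

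The protease inhibitors and related proteins numbered 11. Serpina3k, a liver serpin, was at 0 in all 3 controls and in knockout replicate 3 and had 7973 and 279 counts in knockout replicates 1 and 2. These were 2615-fold and 99.9-fold above the floor of 3 counts per library. Pzp, an alpha-2-macroglobulin relative that traps proteases, had 4, 12 and 4 counts in controls and 6174, 222 and 14 in knockouts. Ahsg, fetuin A, which keeps calcium phosphate in solution, had 16, 6 and 2 counts in controls and 6633, 314 and 18 in knockouts. Cpn2, the regulatory subunit of carboxypeptidase N, was at 0 in every control and had 353, 20 and 4 counts in knockouts. These 4 genes shared an order, with knockout replicate 1 far above knockout replicate 2 and that library far above the rest. Their ratios were 26.2 for Serpina3k, 25.5 for Pzp (21.1 to 31.1), 19.3 for Ahsg (16.5 to 22.9) and 16.2 for Cpn2 (8.61 to 34.4).

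The alpha-1-antitrypsin genes Serpina1a and Serpina1c had 28, 166 and 60, and 0, 8 and 4 counts in controls, and 1769, 78 and 26, and 2520, 84 and 3 in knockouts. They share 57.5% and 69.4% of their 50-base windows with each other, so the split between them is uncertain. The heavy chains of inter-alpha-trypsin inhibitor, which bind hyaluronan in the extracellular matrix, did not move as 1 group. Itih3 had 36, 12 and 4 counts in controls and 1306, 27 and 14 in knockouts. Its neighbour Itih4 (both on chromosome 14, with Itih1, 30886476 to 30943289) had 96, 514 and 140 counts in controls and 3001, 360 and 266 in knockouts. Itih1 had 2714, 1250 and 1081 counts in controls and 1896, 2440 and 60 in knockouts; knockout replicates 1 and 2 fell within the controls' range, and knockout replicate 3 lay far below the 5 other libraries. Itih2 had 280, 410 and 358 counts in controls and 1224, 438 and 399 in knockouts. Fetub, fetuin B, had 68, 56 and 66 counts in controls and 332, 108 and 28 in knockouts.

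Among the role groups of members, the 3 acute phase genes had the highest ratios between the 2 knockout libraries. Saa1, serum amyloid A1, had 6, 0 and 0 counts in controls and 1704, 0 and 0 in knockouts. Saa2 was at 0 in every control and had 1382, 0 and 0 counts in knockouts. Against the floor of 3 counts in knockout replicate 2, the ratio was at least 520 for Saa1 and at least 422 for Saa2. Orm1, the acid glycoprotein orosomucoid, had 6, 0 and 0 counts in controls and 812, 4 and 0 in knockouts, a ratio of 186 (51.1 to 1540). Saa1 and Saa2 share 31.7% to 31.8% of their 50-base windows, so their counts are not wholly separate, though both were absent from knockout replicate 2.

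The ratios of the 5 liver enzymes ran from 0.965 to 16.5. Cyp2c29, a drug-oxidising cytochrome, was at 0 in the controls and in knockout replicate 3 and had 78 and 74 counts in knockout replicates 1 and 2, a ratio of 0.965 (0.600 to 1.56). Cyp3a11, another such cytochrome, had 8, 0 and 0 counts in controls and 60, 38 and 0 in knockouts, a ratio of 1.45 (0.788 to 2.72). Neither interval reached the ratio of any clotting factor. Hpd, an enzyme of tyrosine breakdown, was at 0 in all controls and in knockout replicate 3 and had 438 and 38 counts in knockout replicates 1 and 2, a ratio of 10.6 (6.60 to 17.9). Cps1, the first enzyme of the urea cycle, had 0, 4 and 0 counts in controls and 3216, 178 and 0 in knockouts, a ratio of 16.5 (13.4 to 20.7). Tat, tyrosine aminotransferase, a gene that glucocorticoids induce in liver, had 3009, 3053 and 3042 counts in controls and 6082, 4014 and 3463 in knockouts. The controls lay close together for Tat, and all 3 knockout libraries lay above them. The listed glucocorticoid response genes summed to 713 to 844 CPM in controls and 937 to 995 in knockouts, and 5 of the 10 rose by DESeq2, where 1.53% of all genes did; their part in the Tat values was not tested.

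Mup3 and Mup20 encode major urinary proteins, pheromone carriers that mouse liver secretes, more in males. Both were at 0 in every control and in knockout replicate 3. Mup3 had 5767 and 154 counts in knockout replicates 1 and 2, a ratio of 34.3 (27.4 to 43.6). Mup20 had 578 and 8, a ratio of 66.2 (25.6 to 244). Of the windows of Mup20, 50.5% occur in another gene, so its level is uncertain.

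The comparison of knockout replicates 1 and 2 has 1 library on each side, so it describes these libraries and carries no test of a condition. Over the 41 members the ratio had a median of 24.7, with quartiles at 10.6 and 41.1, and 34 members exceeded 4, as did 2.11% of all 19947 genes with at least 20 counts in the 2 libraries together; the median over those genes was 1.00. No member, and 0.712% of those genes, was at least 4 times higher in knockout replicate 2 than in knockout replicate 1. The ratios differed among members by more than counting error. Of the 39 members with counts in both libraries, 14 had an interval that held the median, 10 lay wholly above it and 15 wholly below. The 24 members with at most 20 counts in every control had a higher median ratio, 33.7. Their ratios still ran from 0.965 to 520, against 0.712 to 520 over all 41. Subtracting the control mean from both libraries raised the median over all members to 31.1. Across these 24 members, which are not independent replicates and share library and depth, counts in the 2 libraries had a Spearman's rho of 0.698.

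**Figure D3:**
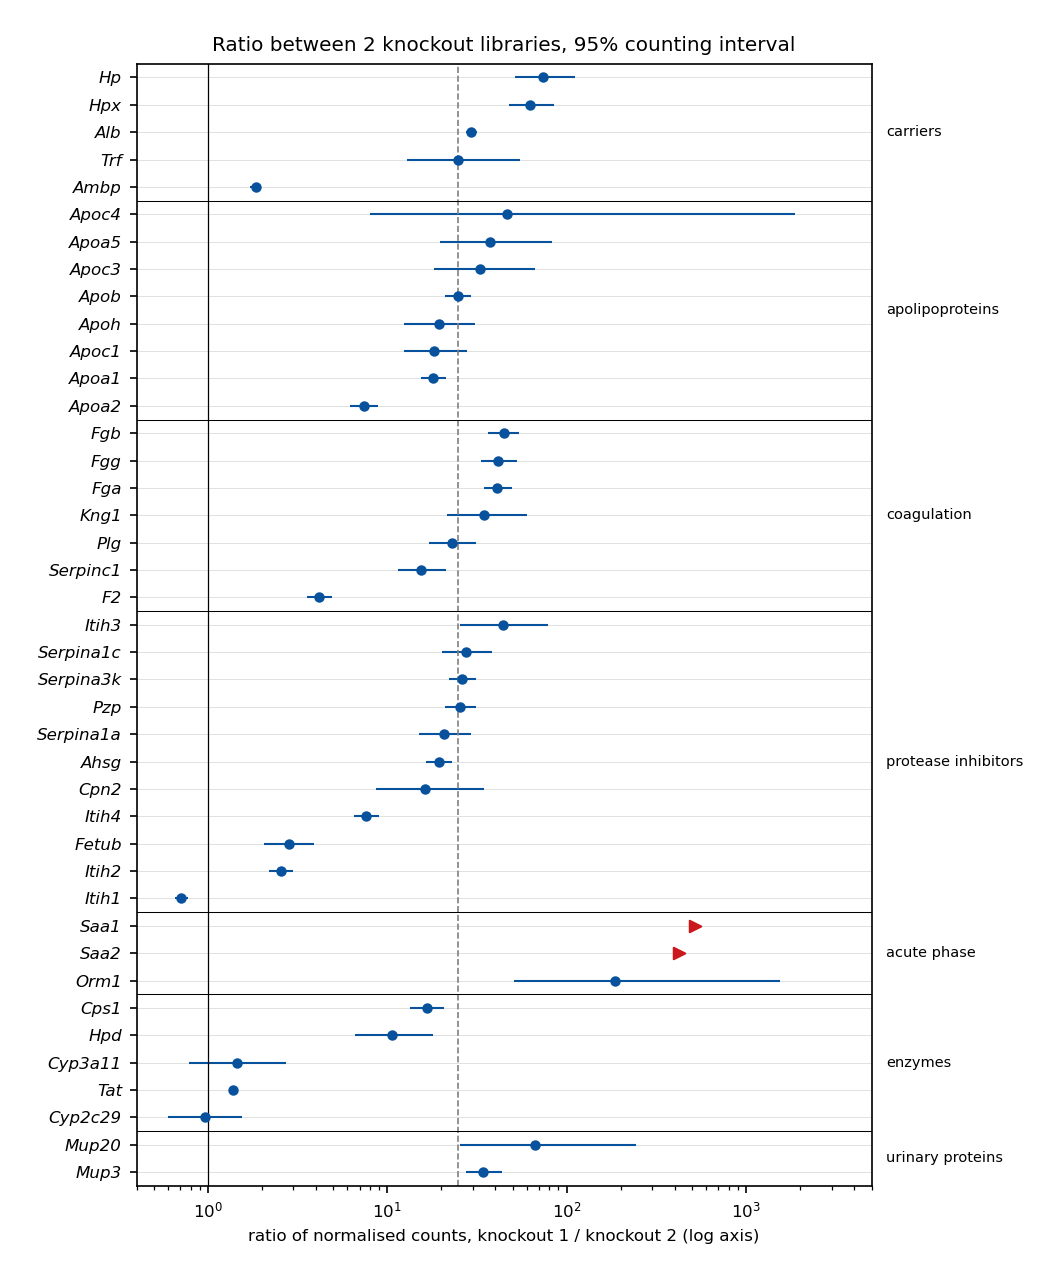
Ratio of normalised counts between knockout replicates 1 and 2 for each member, on a log axis with 95% counting intervals; red arrowheads are lower bounds where knockout replicate 2 had 0 counts, and the dashed line is the members' median of 24.7. The acute phase genes lie at 186 or above, the fibrinogen genes near 41 to 44, and Cyp2c29, Cyp3a11, Tat, Ambp and Itih1 below 2.

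Levels per length gave each library's own order. In knockout replicate 1 the highest values, in RPKM (CPM per kilobase of exon), were 210 for Alb, 49.0 for Mup3, 46.4 for Apoa1, 41.5 for Hpx, 39.5 for Apoa2 and 35.2 for Serpina3k. In knockout replicate 2 the order began with Tat (16.2), Ambp (15.3) and Itih1 (7.20), the same 3 genes that led control replicates 1 and 2, followed by Alb (7.01) and Apoa2 (5.24). In the controls Ambp ranged from 10.3 to 18.3 and Tat from 11.6 to 12.5, and Alb from 0.434 to 0.866. Alb took 30.3% of the summed member counts in knockout replicate 1 and 11.1% in knockout replicate 2, and Tat took 3.39% and 26.4%.

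The controls held 9 members at 0 in all 3 libraries: Apoc4, Kng1, Serpina3k, Cpn2, Saa2, Hpd, Cyp2c29, Mup3 and Mup20. The floor of 3 counts equals 0.0296 CPM in the smallest library, and a count of 0 does not exclude a level above it. Control replicates 1 to 3 had 15, 13 and 15 members at 0, and knockout replicate 3 had 13. Only 3 members exceeded a mean of 5 CPM in the controls, Ambp, Tat and Itih1; without them the members summed to 12.9, 19.9 and 16.4 CPM in controls and to 1514, 63.4 and 16.4 CPM in knockout replicates 1 to 3. The 10 listed acinar markers summed to 6551, 12206 and 5935 CPM in control replicates 1 to 3 and to 16945, 21466 and 15733 CPM in knockout replicates 1 to 3, and their part in the members' values was not tested.

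In the fit of all genes by DESeq2 (Wald test, Benjamini-Hochberg adjusted p under 0.05), 9 of the 21 members that were given an adjusted p passed, all higher, against 2.19% of all 17797 genes (1.53% higher and 0.657% lower): Apoa1, Apob, Plg, Pzp, Serpina1c, Serpina3k, Ahsg, Cpn2 and Tat. Another 19 members, Alb and the fibrinogen genes among them, were given no p because a single library was an outlier by Cook's distance, and Cyp3a11 was left out by its low mean. These are the values the list was chosen on, and nothing is read from the count. Without knockout replicate 1, 2 of 25 members and 153 of 17395 genes passed; the members were Pzp and Plg, with log2 fold changes of 4.20 and 4.04. The edgeR quasi-likelihood test called 0 members and 0.115% of 25210 genes (0.0952% higher and 0.0198% lower), with 37 of 41 members and 2391 of all genes at an unadjusted p under 0.05. Without knockout replicate 3, DESeq2 called 23 members and 318 of 21302 genes in all.

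Hepatocyte genes outside the 41 were listed for comparison, 40 for secreted proteins and 40 for enzymes and transporters. Of the 40 that were given an adjusted p by DESeq2, 4 rose and 2 fell, against 1.53% and 0.657% of all genes. Serpina1e, a further alpha-1-antitrypsin gene, had 8, 24 and 32 counts in controls and 9522, 414 and 14 in knockouts, and rose by 7.18 ± 1.82 on the log2 scale (fold change ± SE from DESeq2, adjusted p = 0.00766). Knockout replicate 3 lay within the controls' range. Serpina1e was not called without knockout replicate 1, without control replicate 1 or 2, or with replicate number added to the fit. Gls2, a liver glutaminase, had 120, 149 and 118 counts in controls and 604, 378 and 273 in knockouts, with no overlap between the groups (1.67 ± 0.27, DESeq2 adjusted p = 2.56e-07). C3, the central complement component, had 1495, 1548 and 1759 counts in controls and 13217, 3348 and 4531 in knockouts (2.08 ± 0.61, DESeq2 adjusted p = 0.0363), and without knockout replicate 1 its log2 fold change was 1.31 (DESeq2 adjusted p = 8.35e-13). It was not called on leaving out any single control library, or with replicate number added to the fit. The complement gene C8b and Hgfac, the activator of hepatocyte growth factor, fell by 0.41 and 0.30 on the log2 scale. Without knockout replicate 1, Gls2 and C3 were called of the 32 listed genes given an adjusted p, where 153 of 17395 genes were. The edgeR test called 0 of 76 listed genes and 29 of 25210 in all, with 51 and 2391 at an unadjusted p under 0.05. The median gene of the 76 fitted was 16.2-fold above the control mean in knockout replicate 1, 1.37-fold in knockout replicate 2 and at 0.662 times it in knockout replicate 3.

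Among these other genes with at most 20 counts in every control, the 6 with the most counts in knockout replicate 1 were Pck1, Mug1, Bhmt, Cyp2f2, Azgp1 and C8a. Pck1, which commits carbon to glucose production, had 3326 and 96 counts in knockout replicates 1 and 2, Mug1, a murinoglobulin, 2902 and 201, and Bhmt, which remethylates homocysteine, 2577 and 50. Azgp1 and the complement gene C8a had 816 counts each in the first library and 32 and 6 in the other. Cyp2f2 had 1918 and 0, with 6 counts in control replicate 3. These genes were picked for their counts in knockout replicate 1, so their order is a description.

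Genes known for their place in the liver lobule were listed after these counts had been seen, Cyp2c29 and Cyp2f2 among them, so the values that follow are a description with no test. Of the 19 genes listed for hepatocytes around the central vein, 5 had at most 20 counts in every control and at least 20 in the 2 knockout libraries together. Cyp2e1, the ethanol-oxidising cytochrome, had 10, 16 and 12 counts in controls and 231, 272 and 8 in knockouts, a ratio of 0.778 (0.604 to 1.01). Cyp1a2 had 30 and 24 counts in knockout replicates 1 and 2, and Cyp2c50 had 64 and 38. With Cyp2c29 and Cyp3a11, the 5 ratios ran from 0.778 to 1.54. Glul, glutamine synthetase, the best known gene of that zone, had at least 39922 counts in every library and could not be read in this way.

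Of the 19 genes listed for hepatocytes around the portal vein, 10 met the same limits. Their ratios ran from 16.5, for Cps1, to 585, for Cyp2f2, the latter with the floor of 3 counts in place of 0. Hal, which breaks down histidine, had 442 and 2 counts in knockout replicates 1 and 2, a ratio of 202 (36.0 to 8030). Sds, serine dehydratase, had 183 and 0, Apoa4 had 450 and 0, and Etnppl had 160 and 0. Otc, of the urea cycle, had 252 and 12, a ratio of 19.2 (8.59 to 53.4). The 5 genes of the central list had summed counts of 463 and 446 in knockout replicates 1 and 2, and the 10 genes of the portal list had 10919 and 314. These limits are met through knockout replicate 1 alone in most genes of the portal list. Over all listed genes with at least 20 counts in the 2 libraries together, the ranges overlapped, with ratios of 0.749 to 2.59 in the central list and from 1.01 upward in the portal list. Genes that the islets also express at high levels, such as Ass1, did not meet the limits and are not in this comparison.

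**Figure D4:**
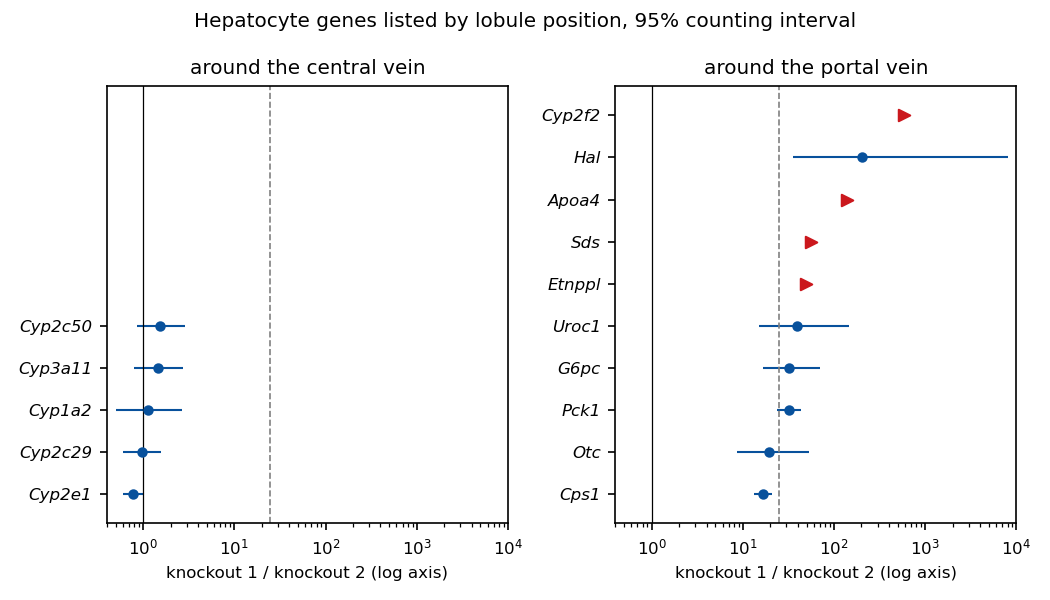
Ratio of normalised counts between knockout replicates 1 and 2 for genes listed by lobule position, with at most 20 counts in every control, on a log axis with 95% counting intervals; arrowheads are lower bounds and the dashed line is the members' median of 24.7. The 5 genes around the central vein lie between 0.778 and 1.54 and the 10 around the portal vein at 16.5 or above. Over all listed genes with at least 20 counts in the 2 libraries together, the ranges overlapped (0.749 to 2.59, and from 1.01 upward).

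Markers of other liver cells were counted in the same libraries. All 5 listed markers of Kupffer cells, the macrophages of the liver, were highest in knockout replicate 1. Clec4f, which is specific to Kupffer cells, had 0 counts in every control and 186, 14 and 0 in knockouts. The 5 markers summed to between 0 and 0.118 CPM in controls and to 5.33, 0.408 and 0.0974 CPM in knockout replicates 1 to 3, and their part in the members' values was not tested. Of the 8 markers of liver sinusoidal endothelium and stellate cells, 5 were highest in knockout replicate 1, with sums of 22.9 to 26.9 CPM in controls and 32.2, 27.6 and 25.6 CPM in knockouts. Of the 6 general macrophage markers 5 were highest in knockout replicate 1, and DESeq2 called 2 of the 6 higher (1.53% of all genes). They summed to 94.5 to 109 CPM in controls and 98.7 to 114 CPM in knockouts. The 6 adipocyte markers summed to 14.8 to 17.6 CPM in controls and to 23.3, 24.8 and 20.7 CPM in knockout replicates 1 to 3, with Fabp4, which other cells also express, called higher by DESeq2 (1.53% of all genes). Lep and Cfd were at 0 in every library and Adipoq had at most 2 counts.

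The 14 listed transcription factors of hepatocytes, several of which islet cells also use, were at a median of 1.61, 0.979 and 0.970 times the control mean in knockout replicates 1 to 3, and 9 of the 14 were highest in knockout replicate 1. Their sums were 345, 350 and 322 CPM in control replicates 1 to 3 and 328, 320 and 306 CPM in knockout replicates 1 to 3. By its sum, knockout replicate 1 lay within the controls' range. Hnf4a had 3675, 3792 and 3036 counts in controls and 4062, 3238 and 3705 in knockouts. DESeq2 called 0 of the 12 given an adjusted p, with 4 at an unadjusted p under 0.05, as were 2269 of all 17797 genes. The edgeR test called 0 of 14, with 4 at an unadjusted p under 0.05, as were 2391 of all 25210 genes. Creb3l3, a factor tied to liver lipid metabolism, had 60 to 91 counts in controls and 281, 84 and 89 in knockouts.

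Of 15 genes listed as higher in male than in female mouse liver, 9 had at most 20 counts in every control and at least 20 in knockout replicates 1 and 2 together. Selenbp2 had 765 and 37 counts in knockout replicates 1 and 2, Cyp2d9 had 506 and 26, Slco1a1 had 217 and 20, Cyp4a12a had 184 and 2, Elovl3 had 148 and 26, Mup7 had 74 and 0, Hsd3b5 had 56 and 10, Ugt2b38 had 40 and 0, and Cyp4a12b had 20 and 0. Another 4 of the 15, C6, Cyp7b1, Cyp2u1 and Moxd1, had at least 32 counts in every library. In knockout replicate 3, which also carried Y-linked counts, the highest of these 9 was Selenbp2 at 14. Of 15 genes listed as higher in female liver, 12 were at 0 in all 6 libraries, Cyp2c40 had 7 and 6 counts in knockout replicates 1 and 2 alone, and Acot3 and Cux2 were present in every library.

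Beyond the lists, genes were counted that stood apart in a single library, with at least 50 normalised counts there and at least 4 times the highest of the other 5. Knockout replicate 1 had 181 such genes, 1.13% of the 15954 at that level, and 34 of them were members and 42 were among the other hepatocyte genes. The 5 other libraries had between 0 and 8, none of them on either list. The shares were 0.00636%, 0.0507% and 0.0387% of genes in control replicates 1 to 3, 0.0% in knockout replicate 2 and 0.0127% in knockout replicate 3. By this rule a gene raised in knockout replicate 2 but higher still in knockout replicate 1 could not count for the former. Against the highest control or the floor alone, 21 members were at least 4 times higher in knockout replicate 2. The genes outside every list with the most counts in knockout replicate 1 were H2-Q10 (1533 counts), Fabp1 (1368), Hc (1288) and Ces3a (1210). Fabp1, the liver fatty acid binding protein, had 0 counts in every control and 1368, 80 and 0 in knockouts. Hc, complement component C5, had 0, 2 and 2 counts in controls and 1288, 12 and 0 in knockouts.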

How the data were processed

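Messenger RNA of whole islets was sequenced in 3 control and 3 knockout libraries, grouped by sample title. The deposited values are raw counts per gene made by the authors, 1 table for all libraries; the submitters' processing notes name FastQC, STAR, featureCounts, DESeq2 and mm10, and the file name records cutadapt. Read pairing, strand setting and annotation are not given in the sources used here. All 55536 gene identifiers matched GENCODE M21 (GRCm38), used for coordinates and exon lengths. With the strand unknown, counts of overlapping genes are uncertain.

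The 41 members and all lists were chosen with earlier results of these data known, and the lobule and wide acute phase lists after the counts were seen. DESeq2 1.42.0 (R 4.3.3), the test in the series' design text, was run on genes with at least 10 counts in total, with genotype as the only term; edgeR 4.0.16, TMM factors, other filters, a replicate block, each library left out, no Cook's distance filter and halved counts were alternatives, the last 2 chosen after the data were seen. The fits were tested on simulated data. Ratios used size factors and exact Clopper-Pearson 95% intervals on halved counts; a ratio over 0 counts used the floor of 3 counts. Named genes were, per role, up to 5 members with the highest mean, the 3 highest and 3 lowest ratios, and Pzp, Ahsg, Plg, Serpina3k and Cpn2; other members are also given. Promoters are from RefSeq, GRCm38.p6. Within groups, libraries differed by at least 20.1 times the chi-square expected from counting, so none was deposited more than once. A few listed genes are not reported here.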

Additional observations from a re-analysis of the deposited data

How the results depend on the processing

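The call counts rest on few libraries. Without 1 library at a time, DESeq2 called 153 to 952 genes in place of 389, 2 to 23 members in place of 9, and 2 to 28 of the other hepatocyte genes in place of 6; all 3 minima were reached on leaving out knockout replicate 1, and the maxima on leaving out control replicate 3 for all genes and knockout replicate 3 for both lists. Without control replicate 1, control replicate 2 and knockout replicate 2, members called numbered 4 of 24, 5 of 27 and 15 of 39 given an adjusted p, other hepatocyte genes 3, 3 and 16, and all genes 412 of 16525, 332 of 21240 and 405 of 18012. The edgeR test called 29, 0 and 0. Without the Cook's distance filter 16 of 41 members, 13 other genes and 415 of 18856 genes in all were called. The replicate block gave 405 genes, 3 members and 9 other genes. Deviations of same-numbered libraries correlated at -0.048, -0.059 and 0.010. No pairing by number was thus seen, though these values cannot show that same-numbered libraries were prepared apart. Knockout replicate 1 summed to 17.2 times the highest control over all members, 12.1 without Alb and 76.0 without the 3 members above 5 CPM in controls. For knockout replicate 2 these values were 1.56, 1.40 and 3.19, and 1.64 with size factors; for knockout replicate 3 they were 0.739 and, without the 3 members, 0.823. Members at or under 3 counts in every control numbered 10, and 18 at 10 counts. The median ratio of 24.7 stayed between 21.2 and 31.1 under its 4 alternatives. For these shifts the cause was not tested, except that dropping Cook's filter gives a p to more genes by construction. Counts of 2 may be a single fragment, so values under about 10 counts carry little weight.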

Other observations

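Genes that stood apart in knockout replicate 1 also included Muc6 and Gkn3, both known from the stomach. No list of stomach genes was drawn up. Muc6, a gland mucin, had 6, 48 and 6 counts in controls and 580, 14 and 2 in knockouts, and Gkn3, a gastrokine, had 14, 22 and 10 counts in controls and 262, 12 and 24 in knockouts. Knockout replicate 2 lay within the controls' range for both genes, which were chosen after their values were seen.

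Of the 25 genes in a wider acute phase list, written after the counts were seen, 12 had at most 20 counts in every control and at least 20 in knockout replicates 1 and 2 together. Their ratios ran from 8.70 for Cfb (19 and 2 counts, 1.30 to 397) to 520 for Saa1, with the floor of 3 counts in place of 0. The 12 summed to 35231 and 592 counts in the 2 libraries, so the limits were met largely through knockout replicate 1. Over all 23 listed genes with at least 20 counts in the 2 libraries together, the ratios ran from 1.21 upward. Saa4, the constitutive serum amyloid gene, had 728 and 8 counts, a ratio of 83.3 (32.3 to 308), and C9 had 793 and 4, a ratio of 182. Hamp, the iron hormone hepcidin, which inflammation induces, had 250 and 18 counts, a ratio of 12.7 (6.49 to 28.5).

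Of the 41 members, 19 lie in 8 clusters of neighbours within 100 kb. The fibrinogen cluster had nearly equal ratios, whereas the 3 Itih genes on chromosome 14 had 44.3, 7.63 and 0.712 for Itih3, Itih4 and Itih1.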
